A study of Homo sapiens with 8 samples.

Results

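Laminins are the trimeric glycoproteins around which basement membranes assemble, and integrins are the alpha-beta receptor pairs by which cells hold on to laminins and other matrix proteins. The genes were taken by symbol, as LAM followed by A, B or C and a number, or ITG followed by A or B, without ITGBL1 and the ITGB1BP genes. By that rule 36 of the 19775 genes measured by at least 1 probe set naming no other gene were members, namely 10 laminin chains, 25 integrin chains and ITGB3BP. ITGB3BP, a centromere protein, matches by its symbol alone and is no integrin. The members have 96 probe sets that name them alone, and 25 members have several, of which the one with the highest mean over all arrays was used. LAMA3 and ITGB6 had no probe set that names them alone and were not analysed here.

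RNA came from human embryonic stem cells that the labels call H9, an established pluripotent line grown in mTeSR medium, with no genetic change named. The 4 groups were undifferentiated cells without ethanol (0 mM), undifferentiated cells with 20 mM ethanol, embryoid bodies without ethanol and embryoid bodies with 20 mM ethanol, with ethanol given for 24 h. Embryoid bodies are suspended clumps of pluripotent cells left to differentiate, and their age is not given in the sources used here. Each group had 2 arrays, lettered A and B, and nothing says that they came from separate cultures, so the p-values measure only the spread between these arrays. Of the 8 arrays, 4 did not match the named line, and these were all the arrays of 1 of the 2 stages, so that stage and line cannot be told apart in any comparison of stages.

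A laminin is made of 1 alpha, 1 beta and 1 gamma chain, and the alpha chain carries the main site that cell receptors bind. Laminins are among the matrix proteins made by the early embryo, and recombinant laminin is a usual coating on which pluripotent stem cells are grown. Integrin alpha chains set most of the choice of ligand: ITGA3, ITGA6 and ITGA7 pair with ITGB1 as laminin receptors, ITGA1, ITGA2, ITGA10 and ITGA11 as collagen receptors, and ITGA5, ITGA8 and ITGAV bind the RGD peptide of fibronectin and vitronectin. Most beta chains link to the actin cytoskeleton through talin and kindlin.

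The values are globally scaled array signals, with a median over probe sets of 69.2 to 79.4 on the undifferentiated arrays and 85.1 to 102 on the embryoid body arrays. Arrays of 1 group correlated at 0.981 to 0.988 over the 14072 genes tested, each read from 1 probe set. The markers of pluripotent cells (8 of 10 with a probe set) summed to 97110 to 106100 in undifferentiated cells, 77600 to 80070 in embryoid bodies at 0 mM and 67840 to 70900 at 20 mM. Endoderm and yolk sac markers (9 of 10) summed to 1072 to 1329, 32170 to 32660 and 39170 to 39660 in the same order, mesenchyme markers (10 of 10) to 13210 to 15860, 46070 to 47320 and 68030 to 68930, and neural markers (8 of 10) to 22360 to 23660, 34220 to 34860 and 32180 to 33290. Of the 10 mesenchyme markers, all tested, 8 were called higher with stage at 0 mM (28.0% of all genes) and 9 at 20 mM (29.2%). At each dose 1 was called lower, against 24.7% and 27.1% of genes. Muscle markers (9 of 10) summed to 5524 to 5923, 5962 to 6160 and 5459 to 5521, with MYH6, MYOD1 and MYOG under the median on every array. Of the 5 tested, 2 were called higher with stage at each dose, 1 lower at 0 mM and 2 lower at 20 mM. Surface epithelium and trophoblast markers (8 of 10) summed to 14610 to 15990, 22930 to 23030 and 20150 to 21190, with KRT14 and CGA under the median on every array. Of the 6 tested, 3 were called higher at 0 mM and 4 at 20 mM, with 1 lower at each dose. Endothelial markers (10 of 10) summed to 2672 to 3320, 2228 to 2435 and 2848 to 2935. Of these, CDH5, TIE1, EMCN, ESAM and CLDN5 lay under the array median on every array, and of the 5 tested, 2 were called higher with stage at each dose and 2 lower at 0 mM. Blood markers (7 of 10) summed to 217 to 328, 211 to 380 and 410 to 432, with PTPRC, HBZ, SPI1 and TAL1 under the median on every array, and of the 3 tested, 1 was called higher at 0 mM and 0 at 20 mM. The part of these marker differences in the values below was not tested, and in such bulk samples fewer cells of a type and less RNA per cell cannot be told apart.

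In embryoid bodies the laminin chains LAMA1, LAMA2, LAMA4, LAMB1, LAMB2, LAMB3 and LAMC1 were higher than in undifferentiated cells at both ethanol doses. Among integrin chains ITGA1, ITGA4, ITGA5, ITGA7, ITGA8, ITGA9, ITGA11, ITGAV, ITGB1 and ITGB8 were higher at both doses, and ITGA2B was lower. Testing required at least 2 arrays above their own median, and a call is a Benjamini-Hochberg adjusted p under 0.05 over all 14072 genes tested in limma's moderated linear model. Of the 36 members 28 were tested, and of these 17 were called higher in embryoid bodies at 0 mM, where 28.0% of all genes tested were higher, and 2 were called lower, against 24.7%. At 20 mM 18 members were higher, against 29.2% of genes, and 2 were lower, against 27.1%. In the same direction at both doses, 17 members were called higher, against 23.9% of genes, and 2 lower, against 20.2%. The tested members had a median log2 change of 0.79 at 0 mM and 0.93 at 20 mM, beside 0.017 over all genes tested at either dose. Their change was above 0 for 22 of 28 at 0 mM, against 50.4% of genes, and for 25 at 20 mM, against 50.7%. The arrays of the stages did not overlap for 20 members that were higher at 0 mM (40.3% of genes) and 4 that were lower (38.1%), and for 21 higher (39.6%) and 3 lower (37.6%) at 20 mM.

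The filter bears on these counts, because LAMA4, LAMB3, ITGA8 and ITGA11 passed it through embryoid body arrays alone and so had to be higher there. With no filter, all 36 members entered, and 16 were called higher at 0 mM (18.2% of 19775 genes) and 17 at 20 mM (20.0% of genes), with 2 lower at each dose (14.8% and 16.4% of genes). Their median log2 change was 0.56 at 0 mM and 0.60 at 20 mM, beside 0.017 and 0.083 over all genes. Centring the arrays on their medians, which differ between stages, moved the median change of all genes by -0.28 at 0 mM and -0.42 at 20 mM. The calls over all genes then stood at 2506 higher and 5815 lower at 0 mM, in place of 3946 and 3478, and at 2269 higher and 6822 lower at 20 mM, in place of 4113 and 3810. The member medians under that centring were 0.51 at either dose, beside -0.27 and -0.40 over all genes.

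**Figure D1:**
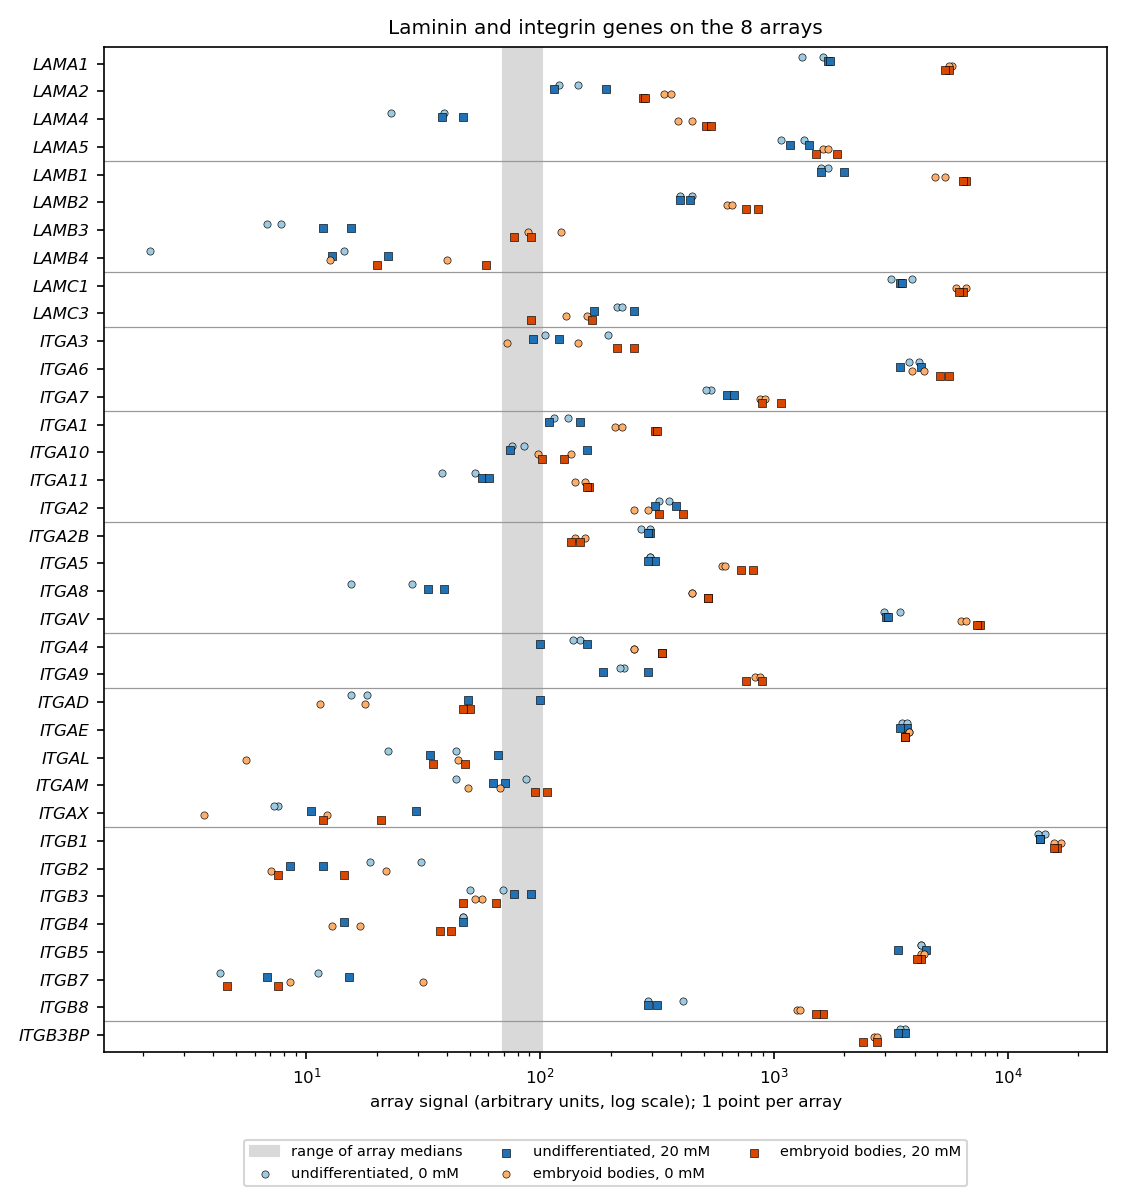
Signal of every laminin and integrin member on each of the 8 arrays, on a log axis, with 1 point per array, blue for undifferentiated cells, orange for embryoid bodies, circles for 0 mM and squares for 20 mM ethanol. The grey band spans the array medians, 69.2 to 102. LAMA1, LAMA4, LAMB1, ITGA8, ITGA9 and ITGB8 show embryoid body arrays to the right of all undifferentiated arrays, whereas ITGAE, ITGB5 and ITGA6 overlap or lie close together.

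Of the 4 alpha laminin chains 3 were called higher in embryoid bodies at each dose, beside 28.0% of all genes at 0 mM and 29.2% at 20 mM. Among them LAMA4 passed the filter through embryoid body arrays alone and so had to be higher there. LAMA1, the alpha chain of the first laminin made in the embryo, read 1318 and 1622 in undifferentiated cells at 0 mM, 1698 and 1738 at 20 mM, and 5754 and 5623 in embryoid bodies at 0 mM and 5623 and 5370 at 20 mM. Every embryoid body array lay above every undifferentiated array. The log2 change with stage was 1.96 ± 0.11 (SE of the fit, n = 2 arrays a group, a fold of 3.89) at 0 mM with a limma adjusted p of 0.000123, and 1.68 (3.20-fold) at 20 mM with an adjusted p of 0.000175.

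LAMA4, a chain of vascular and mesenchymal basement membranes, read 38.9 and 22.9 in undifferentiated cells at 0 mM and 38.0 and 46.8 at 20 mM, all under the array median. In embryoid bodies it read 447 and 389 at 0 mM and 513 and 537 at 20 mM, with no overlap of the stages. The log2 change was 3.80 ± 0.26 (14.0-fold, limma adjusted p = 0.000219) at 0 mM and 3.64 (12.4-fold, adjusted p = 0.00021) at 20 mM. The mean of its 5 probe sets gave a smaller change, 1.86 at 0 mM and 1.25 at 20 mM.

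LAMA2, the alpha chain of muscle and nerve basement membranes, read 120 and 145 in undifferentiated cells at 0 mM against 339 and 363 in embryoid bodies, a log2 change of 1.41 ± 0.24 (2.66-fold, limma adjusted p = 0.0045). At 20 mM it read 191 and 115 against 275 and 282, a change of 0.91 (1.88-fold, adjusted p = 0.0199), and that call was lost without either embryoid body array (adjusted p 0.0733 and 0.0815). It was also lost with median centring (0.50), quantile normalisation, cyclic loess, no _x_at or _s_at probe sets, or only the groups compared (adjusted p 0.0514 to 0.0778), and the mean of its 4 probe sets ended the call at both doses, with log2 changes of 0.30 and 0.13. LAMA5, the alpha chain that stem cells share with many epithelia, read 1072 to 1413 in undifferentiated cells and 1514 to 1862 in embryoid bodies. Its arrays did not overlap between stages, but neither change passed (0.47, limma adjusted p = 0.0583, and 0.38, adjusted p = 0.0962).

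All 3 tested beta laminin chains were called higher at both doses, beside 28.0% of all genes at 0 mM and 29.2% at 20 mM. LAMB3 passed the filter through embryoid body arrays alone and so had to be higher there. With no filter, 3 of the 4 beta chains were called higher at each dose, beside 18.2% and 20.0% of genes. LAMB1, the beta chain that joins LAMA1 and LAMC1 in the embryo, read 1585 and 1698 in undifferentiated cells at 0 mM, 1995 and 1585 at 20 mM, 5370 and 4898 in embryoid bodies at 0 mM and 6607 and 6457 at 20 mM. Its stages did not overlap, and the log2 change was 1.64 ± 0.13 (3.13-fold, limma adjusted p = 0.000323) at 0 mM and 1.88 (3.67-fold, adjusted p = 0.000184) at 20 mM. LAMB2, the beta chain of neuromuscular and glomerular membranes, read 398 to 447 in undifferentiated cells, 631 and 661 in embryoid bodies at 0 mM and 851 and 759 at 20 mM. Its stage change was 0.61 ± 0.10 (1.53-fold, limma adjusted p = 0.0042) and 0.95 (1.93-fold, adjusted p = 0.000799).

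LAMB3, the beta chain of the epidermal laminin that holds hemidesmosomes, read 7.76 and 6.76 in undifferentiated cells at 0 mM and 11.8 and 15.5 at 20 mM. In embryoid bodies it read 89.1 and 123 at 0 mM and 77.6 and 91.2 at 20 mM, near the array median. All embryoid body arrays lay above all undifferentiated ones, and the log2 change was 3.85 ± 0.21 (14.5-fold, limma adjusted p = 0.000113) at 0 mM and 2.64 (6.24-fold, adjusted p = 0.000312) at 20 mM. These folds rest on signals far under the array median in undifferentiated cells: with 16 added to each signal before the log, the changes were 2.38 and 1.76. LAMB4 read 2.14 to 58.9, under the median on every array, and was not tested.

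LAMC1, the gamma chain of most laminins, read 3162 and 3890 in undifferentiated cells at 0 mM, 3467 and 3548 at 20 mM, 6026 and 6607 in embryoid bodies at 0 mM and 6457 and 6166 at 20 mM. The stages did not overlap, and the log2 change was 0.85 ± 0.12 (1.80-fold, limma adjusted p = 0.00214) at 0 mM and the same 0.85 (adjusted p = 0.00181) at 20 mM. LAMC3, the other gamma chain measured, read 170 to 251 in undifferentiated cells and 91.2 to 166 in embryoid bodies. Its arrays lay lower in embryoid bodies with no overlap, but the changes of -0.61 (limma adjusted p = 0.158) and -0.75 (adjusted p = 0.0947) did not pass.

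**Figure D2:**
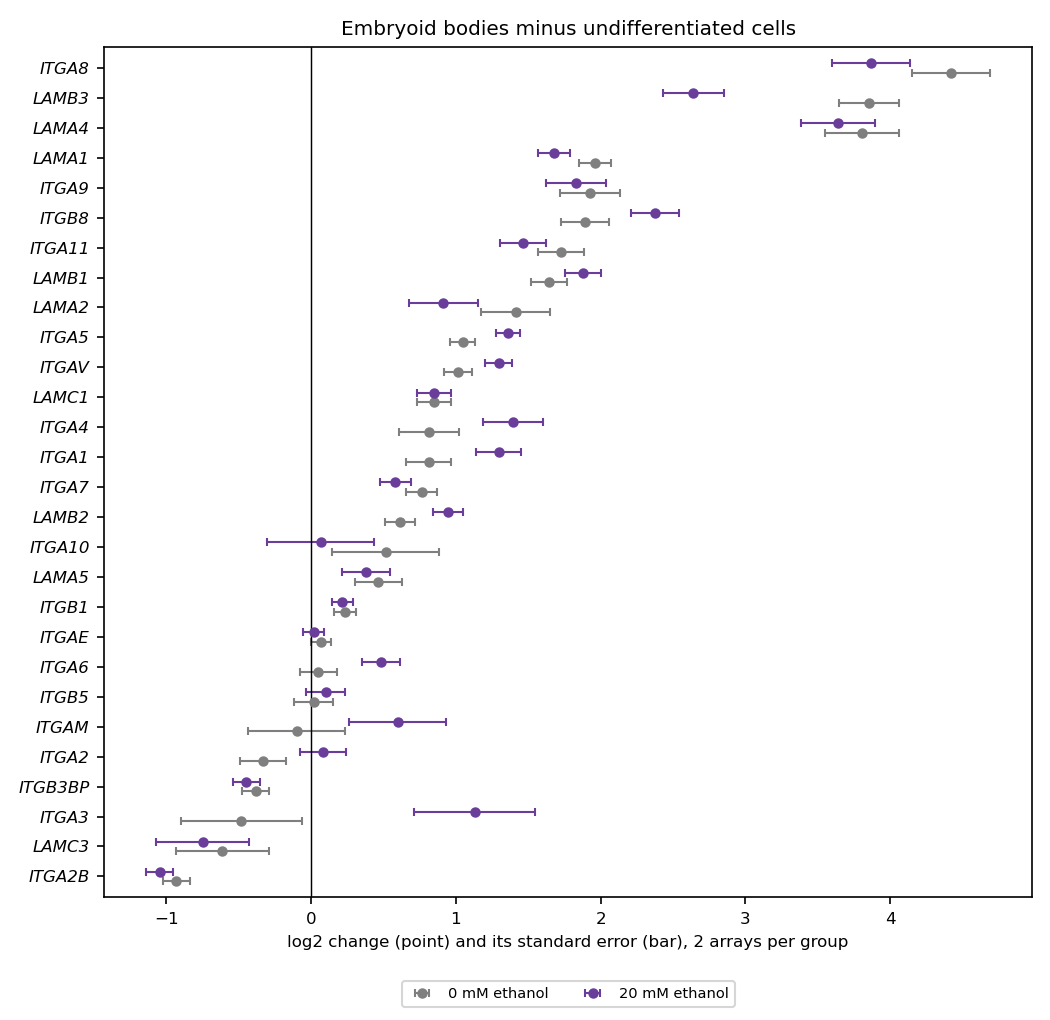
Log2 change from undifferentiated cells to embryoid bodies for each tested member, with the standard error of the fit as bars, in grey at 0 mM and in purple at 20 mM ethanol, with members ordered by the change at 0 mM. ITGA8, LAMB3 and LAMA4 lie farthest to the right at 0 mM, at 4.42, 3.85 and 3.80, and ITGA2B lies farthest to the left at -0.93.

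Promoter sequences are shown for LAMB1, LAMC1, LAMA4 and ITGA8, which moved in the same direction, and for LAMB4, the neighbour of LAMB1 among protein-coding genes on chromosome 7, which stayed under the array median. They are the 250 bases before each start in the RefSeq annotation of GRCh38.p14, 5′ to 3′ along the gene's strand, and the members matched 32 entries of 25 genes by symbol. Capitals mark matches on either strand, overlaps counted, to 4 short motifs: the GC box GGGCGG, the CCAAT box CCAAT, the TATA box TATAAA and the AP-1 site TGANTCA. No matches of different motifs overlapped in these 5 windows.
LAMB1: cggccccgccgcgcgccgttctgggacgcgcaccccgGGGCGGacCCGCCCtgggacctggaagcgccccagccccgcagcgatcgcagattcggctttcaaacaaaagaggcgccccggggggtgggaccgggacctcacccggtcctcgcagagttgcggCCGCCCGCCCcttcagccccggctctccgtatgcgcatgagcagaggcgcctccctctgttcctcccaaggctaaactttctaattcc
LAMB4: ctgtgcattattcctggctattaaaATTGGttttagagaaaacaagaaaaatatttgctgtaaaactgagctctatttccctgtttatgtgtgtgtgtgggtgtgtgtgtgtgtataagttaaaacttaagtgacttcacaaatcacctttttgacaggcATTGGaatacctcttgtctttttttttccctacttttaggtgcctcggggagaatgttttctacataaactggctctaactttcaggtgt
LAMC1: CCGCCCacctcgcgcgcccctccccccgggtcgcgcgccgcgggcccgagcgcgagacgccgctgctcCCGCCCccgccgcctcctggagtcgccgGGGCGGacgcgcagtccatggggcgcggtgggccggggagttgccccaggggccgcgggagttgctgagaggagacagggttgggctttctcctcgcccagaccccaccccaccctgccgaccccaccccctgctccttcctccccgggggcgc
LAMA4: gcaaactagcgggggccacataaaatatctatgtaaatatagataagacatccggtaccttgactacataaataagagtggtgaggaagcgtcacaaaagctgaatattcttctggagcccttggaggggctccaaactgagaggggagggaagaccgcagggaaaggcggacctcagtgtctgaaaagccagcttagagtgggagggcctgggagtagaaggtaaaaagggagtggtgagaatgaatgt
ITGA8: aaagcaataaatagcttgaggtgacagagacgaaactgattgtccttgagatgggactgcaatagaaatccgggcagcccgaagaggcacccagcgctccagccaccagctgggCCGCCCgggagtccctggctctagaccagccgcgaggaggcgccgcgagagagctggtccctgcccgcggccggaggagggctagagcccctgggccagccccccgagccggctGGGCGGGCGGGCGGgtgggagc

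The LAMB1 window (chr7:108003162-108003411, minus strand) is 70.4% G and C, with 28 CpG dinucleotides and 4 GC boxes. The LAMB4 window (chr7:108130362-108130611, minus strand) is 36.4% G and C, with 1 CpG, 2 CCAAT boxes and no GC box. LAMC1 (chr1:183023170-183023419, plus strand) is 79.6% G and C, with 32 CpG and 3 GC boxes, and ITGA8 (chr10:15719923-15720172, minus strand) is 68% G and C, with 19 CpG and 4 GC boxes. LAMA4 (chr6:112254568-112254817, minus strand) is 48.4% G and C, with 5 CpG, and holds none of the 4 motifs. Of all 35116 promoter windows of this length, 42.6% held the GC box, 32% the CCAAT box, 10.7% the TATA box and 6.57% the AP-1 site, and the median G and C content was 58%. Over the members' 32 windows, 17 held the GC box, 5 the CCAAT box, 2 the TATA box and 1 the AP-1 site.

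Among the laminin-binding integrin chains, ITGA7 was called higher at both doses, ITGA6 at 20 mM, and ITGA3 at neither. ITGA6, the laminin receptor chain long used to recognise stem cells, read 3802 and 4169 in undifferentiated cells at 0 mM and 3467 and 4266 at 20 mM, against 4365 and 3890 in embryoid bodies at 0 mM and 5129 and 5623 at 20 mM. The stages overlapped at 0 mM (log2 change 0.050, limma adjusted p = 0.768) and stood apart at 20 mM (0.48 ± 0.13, 1.40-fold, adjusted p = 0.0222). The call at 20 mM was lost without undifferentiated array A (adjusted p 0.0793) and without embryoid body array A or B (0.0527 and 0.1065). It was lost with median centring too, where the change was 0.066 (adjusted p 0.7196), with the mean of probe sets (0.0576) and with only the groups compared (0.0635). ITGA7, a laminin receptor chain of muscle, read 513 to 676 in undifferentiated cells and 871 to 1072 in embryoid bodies, a change of 0.76 ± 0.11 (1.70-fold, limma adjusted p = 0.00231) and 0.58 (adjusted p = 0.00548), the latter call being lost with median centring (0.17, adjusted p 0.2768). ITGA3 read 93.3 to 195 in undifferentiated cells, 145 and 72.4 in embryoid bodies at 0 mM and 251 and 214 at 20 mM, so that its replicate arrays differed widely, and its changes were -0.48 (adjusted p = 0.37) and 1.13 (adjusted p = 0.0623).

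Of the collagen-binding alpha chains, ITGA1 and ITGA11 were higher at both doses. ITGA11, a receptor of fibroblasts and mesenchyme for fibrillar collagen, read 38.0 and 52.5 in undifferentiated cells at 0 mM, 56.2 and 60.3 at 20 mM, and 155, 141, 162 and 159 in embryoid bodies. Undifferentiated arrays were all under the array median and embryoid body arrays all above it, and the log2 change was 1.73 ± 0.16 (3.31-fold, limma adjusted p = 0.000554) and 1.46 (2.75-fold, adjusted p = 0.000806). The mean of its 3 probe sets gave 0.70 at 0 mM and no call (adjusted p 0.3346). ITGA1 read 110 to 148 in undifferentiated cells, 209 and 224 in embryoid bodies at 0 mM and 309 and 316 at 20 mM, a change of 0.81 ± 0.16 (1.76-fold, limma adjusted p = 0.00709) and 1.30 (2.45-fold, adjusted p = 0.00115), with the call at 0 mM lost under quantile normalisation (0.51, adjusted p 0.0553). ITGA2 (-0.33, adjusted p = 0.132 and 0.083, adjusted p = 0.688) and ITGA10 (0.51, adjusted p = 0.284 and 0.066, adjusted p = 0.892) did not pass.

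All 4 chains of the RGD-binding class passed at both doses, ITGA5, ITGA8 and ITGAV higher and ITGA2B lower. Over all genes 28.0% were called higher and 24.7% lower at 0 mM, and 29.2% and 27.1% at 20 mM. Of these chains ITGA8 passed the filter through embryoid body arrays alone and so had to be higher there. ITGA8, a chain of mesenchyme and of the developing kidney, read 15.5 and 28.2 in undifferentiated cells at 0 mM and 33.1 and 38.9 at 20 mM, under the array median. In embryoid bodies it read 447 on both arrays at 0 mM and 525 on both at 20 mM, the deposited values being rounded to steps of 0.033 on the log2 scale. The log2 change of 4.42 ± 0.27 (21.4-fold, limma adjusted p = 0.000161) at 0 mM was the largest of the members in this fit, and at 20 mM the change was 3.87 (14.6-fold, adjusted p = 0.000205). It was 2.16 and 2.14 with the mean of its 4 probe sets, and 3.63 at 0 mM with 16 added to each signal.

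ITGA5, the fibronectin receptor chain, read 288 to 309 in undifferentiated cells, 603 and 617 in embryoid bodies at 0 mM and 724 and 813 at 20 mM. Its change was 1.05 ± 0.08 (2.07-fold, limma adjusted p = 0.00037) and 1.36 (2.57-fold, adjusted p = 0.000146), with no overlap between stages. ITGAV, which pairs with several beta chains to bind vitronectin and latent TGF-beta, read 2951 to 3467 in undifferentiated cells and 6310 to 7586 in embryoid bodies, a change of 1.01 ± 0.09 (2.02-fold, limma adjusted p = 0.000603) and 1.30 (2.45-fold, adjusted p = 0.000237). ITGA2B, the platelet fibrinogen receptor chain, read 269 to 295 in undifferentiated cells and 135 to 155 in embryoid bodies. It fell by 0.93 on the log2 scale at 0 mM (1.91-fold lower, limma adjusted p = 0.000707) and by 1.05 at 20 mM (2.07-fold lower, adjusted p = 0.000419).

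ITGA9, a chain that binds tenascin and osteopontin, read 229 and 219 in undifferentiated cells at 0 mM, 186 and 288 at 20 mM, 832 and 871 in embryoid bodies at 0 mM and 759 and 891 at 20 mM. The stages stood apart, with a log2 change of 1.93 ± 0.21 (3.80-fold, limma adjusted p = 0.000965) at 0 mM and 1.83 (3.55-fold, adjusted p = 0.000972) at 20 mM. The mean of its 4 probe sets gave 0.91 at 0 mM and no call (adjusted p 0.1203). ITGA4, which binds VCAM1 and fibronectin, read 100 to 159 in undifferentiated cells, 251 on both embryoid body arrays at 0 mM and 331 on both at 20 mM. Its change was 0.81 ± 0.21 (1.76-fold, limma adjusted p = 0.0194) at 0 mM and 1.40 (2.63-fold, adjusted p = 0.00241) at 20 mM, and the call at 0 mM was lost without any 1 of the 4 arrays compared (adjusted p 0.0632 to 0.082). The same call was lost with quantile normalisation, cyclic loess, median centring or the mean of its probe sets (adjusted p 0.0557 to 0.1064).

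Of the 7 beta chains, 3 were tested. ITGB1, the partner of most alpha chains above, read 14450 and 13490 in undifferentiated cells at 0 mM, 13800 on both arrays at 20 mM, 16980 and 15850 in embryoid bodies at 0 mM and 16220 and 15850 at 20 mM. The stages did not overlap, yet the change was small, 0.23 ± 0.07 (1.17-fold, limma adjusted p = 0.0419) and 0.22 (1.16-fold, adjusted p = 0.0499). Both calls were lost under most alternatives, and with median centring the change was -0.050 and -0.20. ITGB8, which pairs with ITGAV to release TGF-beta from its latent form, read 288 and 407 in undifferentiated cells at 0 mM, 288 and 316 at 20 mM, 1259 and 1288 in embryoid bodies at 0 mM and 1622 and 1514 at 20 mM. Its stages stood far apart, with a log2 change of 1.89 ± 0.17 (3.72-fold, limma adjusted p = 0.000486) and 2.38 (5.19-fold, adjusted p = 0.000207). ITGB5, another partner of ITGAV, read 3388 to 4467 over all arrays and did not pass (0.017, limma adjusted p = 0.924, and 0.10, adjusted p = 0.557).

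Most of the chains known from leukocytes were near or under the array median. ITGB2, the beta chain of leukocytes, read 7.08 to 30.9, its partners ITGAL and ITGAX 5.50 to 66.1 and 3.63 to 29.5, and ITGB7, a beta chain of lymphocytes, 4.27 to 31.6, all under the array median. ITGB4, the hemidesmosome chain that pairs with ITGA6, read 12.9 to 46.8, under the median on every array. ITGB3, the usual partner of ITGA2B, read 46.8 to 91.2, and ITGAD read 11.5 to 100, each above the median on 1 array only, so that neither was tested. ITGAM, tested with 2 arrays above the median, read 43.7 to 107 and did not pass (-0.10, limma adjusted p = 0.822, and 0.60, adjusted p = 0.178). ITGAE, which holds lymphocytes in epithelium with ITGB7, was unlike the rest of its class in reading 3467 to 3802 on all 8 arrays, with stage changes of 0.066 (limma adjusted p = 0.459) and 0.017 (adjusted p = 0.859). ITGB3BP, the centromere protein, read 3388 to 3631 in undifferentiated cells and 2399 to 2754 in embryoid bodies and fell by 0.38 (limma adjusted p = 0.0162) and by 0.45 (adjusted p = 0.00826), the former call being lost without undifferentiated array A or either embryoid body array (adjusted p 0.0629 to 0.0772).

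Several members could be read from more than 1 probe set. Of the 36 members, 12 had at least 2 probe sets above the median on at least 4 arrays, and in 10 of these all such probe sets gave the same direction with stage at both doses. The exceptions were ITGA2 (-0.33 to 0.15 at 0 mM) and ITGB5 (-0.66 to 0.017 at 0 mM). The cutoff bears on this count, because it favours probe sets that are high in embryoid bodies. Both ITGA8 probe sets passed on 4 arrays only, with undifferentiated group means of 20.9 to 35.9, under the array medians. The dimmer LAMA1 probe set also passed on 4, with group means of 62.4 and 60.3 in undifferentiated cells against 84.1 and 116 in embryoid bodies. Agreement for these 2 genes is therefore of little weight. Sizes varied between probe sets of 1 gene, from 0.43 to 1.96 for LAMA1, from 2.19 to 4.42 for ITGA8 and from 0.70 to 1.93 for ITGA9 at 0 mM. LAMB1 (1.64 to 1.86) and LAMC1 (0.85 to 1.18) varied less.

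**Figure D3:**
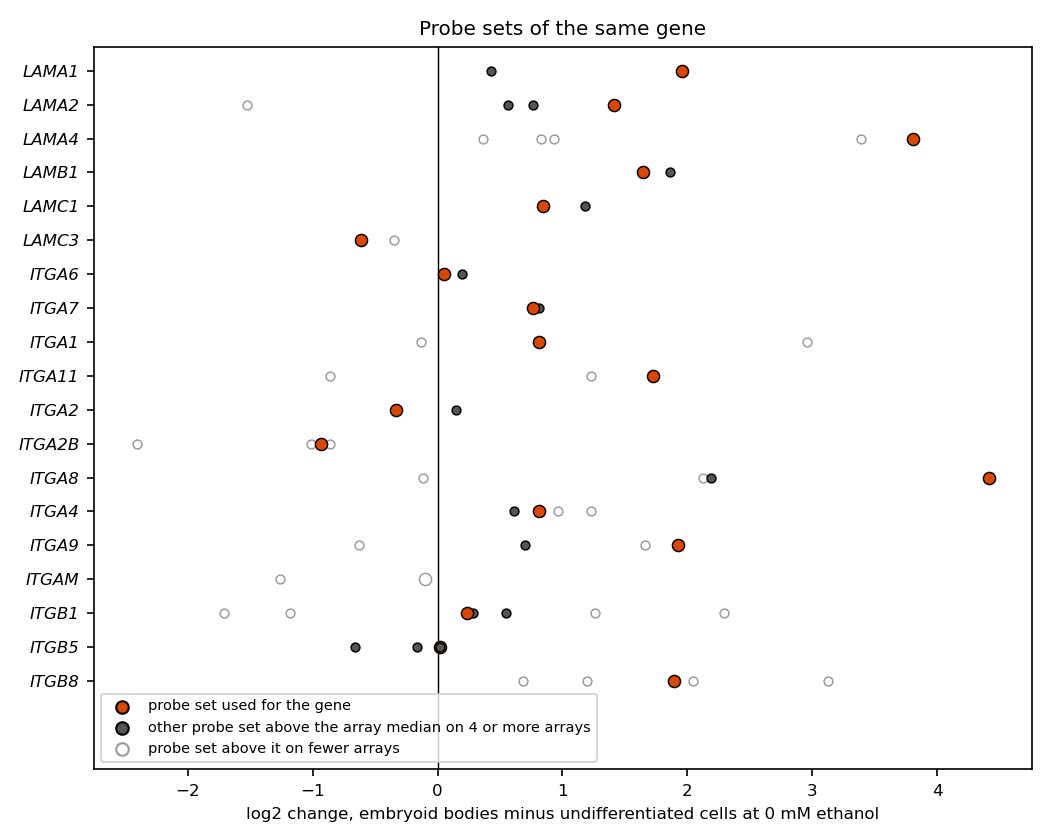
Log2 change with stage at 0 mM for each probe set of the tested members with several. Orange marks the probe set used, dark points are others above the array median on at least 4 arrays, and open points are dimmer. Filled points of LAMB1 and LAMC1 lie close together, those of LAMA1, ITGA8 and ITGA9 lie apart on the same side of 0, and those of ITGA2 and ITGB5 lie on both sides.

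Genes that work beside laminins and integrins were read from lists of known partners. These lists were chosen with earlier results of these data known, so their counts are no independent support. In the list of basement membrane partners, which holds type IV collagens, nidogens, netrins, fibulins and proteoglycans, 21 of 24 genes were tested, and 20 were called higher in embryoid bodies and 0 lower at 0 mM, and 19 higher and 0 lower at 20 mM, beside 28.0% of all genes higher and 24.7% lower at 0 mM and 29.2% and 27.1% at 20 mM. COL15A1, NPNT, FREM1, NTN4 and EGFLAM passed the filter through embryoid body arrays alone and so had to be higher there. With no filter, 19 of 23 were called higher at 0 mM (18.2% of genes) and 21 at 20 mM (20.0%), with 0 lower, and a median log2 change of 1.64 and 1.96, beside 0.017 and 0.083 over all genes. COL4A6, a type IV collagen chain, read 1778 to 1995 in undifferentiated cells and 8710 to 10230 in embryoid bodies, a change of 2.29 ± 0.08 (4.90-fold, limma adjusted p = 2.93e-05) at 0 mM and 2.29 at 20 mM. Its partner chain COL4A5 rose by 1.81 and 1.98, NTN4, a netrin that binds the laminin gamma chain, by 2.18 and 2.41, and FBLN2, a fibulin, by 2.49 and 2.24. NID1, the protein that links laminin to type IV collagen, was chosen after its values were seen: it read 1585 to 1778 in undifferentiated cells, 1738 and 1778 in embryoid bodies at 0 mM and 3020 and 3388 at 20 mM, so that its stage change was 0.00 at 0 mM and 0.93 (limma adjusted p = 0.000632) at 20 mM.

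The integrin adhesion machinery, the cytoplasmic proteins on which integrin tails pull, had called genes in both directions. Of 32 genes 28 were tested, with 9 higher and 9 lower in embryoid bodies at 0 mM and 9 higher and 8 lower at 20 mM, near the shares of all genes given above, and a median of -0.19 and 0.12. TNS3, a tensin, read 1072 to 1288 in undifferentiated cells and 2818 to 3162 in embryoid bodies, a change of 1.54 (limma adjusted p = 0.000155) and 1.26 (adjusted p = 0.00024), and TLN2, a talin, rose by 0.76 at both doses. RSU1, a partner of the ILK complex, fell by 0.65 and 0.58, and BCAR1, the scaffold p130Cas, by 0.63 and 0.38. Averaged over all probe sets of the gene, BCAR1 changed by 0.37 and 0.61, RSU1 by -0.68 and 0.14, and TNS3 by 0.39 and 0.78, and none of these passed. Averaged in the same way TLN2 changed by 0.60 at 20 mM and lost its call there (adjusted p 0.0883). The BCAR1 call at 20 mM was also lost without array B of either group (adjusted p 0.0614 and 0.0796).

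Other integrin ligands, such as fibronectin and tenascin, were tested for 13 of 14 genes, with 8 higher and 5 lower at 0 mM and 8 higher and 4 lower at 20 mM. VCAM1 and EMILIN1 of this list passed the filter through embryoid body arrays alone. Of 8 other laminin receptors, such as syndecans and BCAM, 5 were tested, and 2 were higher at 0 mM and 3 at 20 mM, with 0 lower. Both lists stand beside 28.0% of all genes higher and 24.7% lower at 0 mM, and 29.2% and 27.1% at 20 mM.

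**Figure D4:**
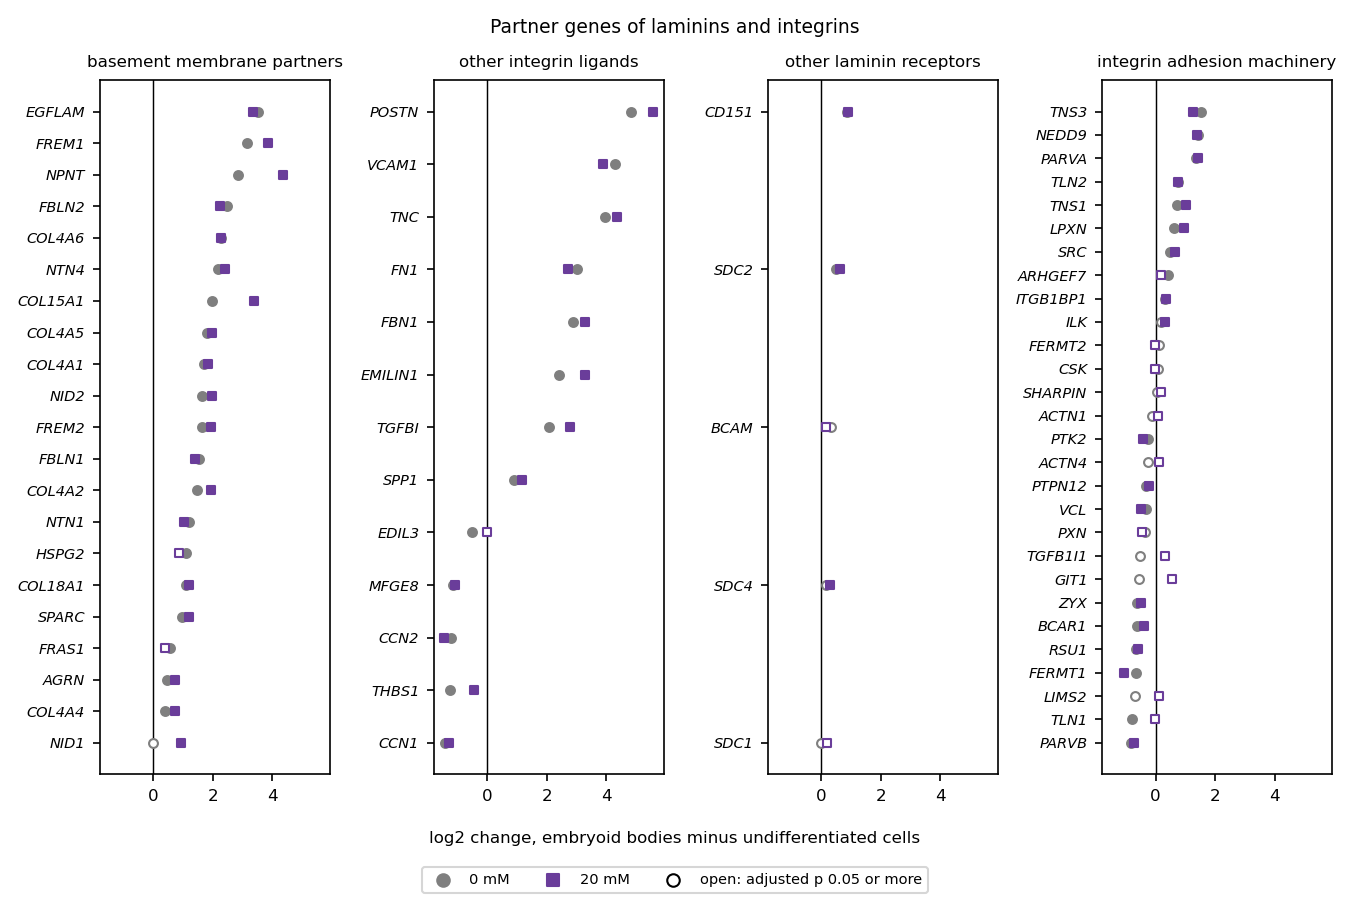
Log2 change with stage for each tested gene of the 4 partner lists, as grey circles at 0 mM and purple squares at 20 mM, filled where called. Points at 0 mM of the basement membrane list lie at or above 0 with a median of 1.64, and those of the adhesion machinery lie on both sides with a median of -0.19.

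In embryoid bodies, 20 mM ethanol for 24 h gave 0 called members of 28, where 0.0426% of all genes tested were called higher and 0.0284% lower, that is 6 and 4 genes. At an unadjusted p under 0.05 there were 7 members, against 22.3% of genes. With the variance fitted with a trend and robustly, 0 members were called, where 6.81% of all genes were called in either direction. The filter at the 75th percentile gave 0 of 17 members, against 5.28% of genes. The arrays of both doses did not overlap for 14 members that were higher with ethanol, against 29.4% of genes, and for 2 that were lower, against 28.1%. The median log2 change of the members was 0.12, beside 0.017 over all genes. Integrin chains had 12 of 18 changes above 0 (median 0.22) and laminin chains 5 of 9 (median 0.00), against 50.6% of all genes above 0. Centring the arrays on their medians moved the change of all genes by -0.27, with 172 genes then called higher and 3708 lower in place of 6 and 4, the member median at -0.14, and ITGAE and ITGB3BP called lower.

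The 4 members with the smallest p were ITGA5, ITGA1, LAMB2 and ITGA6. ITGA5 read 603 and 617 at 0 mM and 724 and 813 at 20 mM, a log2 change of 0.33 ± 0.08 (1.26-fold, limma adjusted p = 0.119). ITGA1 read 209 and 224 against 309 and 316, a change of 0.53 ± 0.16 (1.45-fold, limma adjusted p = 0.143). For both genes each ethanol array lay above each array without it. LAMB2 read 631 and 661 against 851 and 759, a change of 0.32 ± 0.10 (limma adjusted p = 0.163), and ITGA6 4365 and 3890 against 5129 and 5623, a change of 0.38 ± 0.13 (1.30-fold, limma adjusted p = 0.175). None of these passed, and the widest change, 1.18 for ITGA3, had an adjusted p of 0.186. At the other end LAMA2 read 339 and 363 against 275 and 282, a change of -0.33. LAMA1 (-0.050) and LAMC1 (0.00) had changes near 0.

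The partner lists gave 0 calls for ethanol in embryoid bodies as well, with a median of 0.22 for the basement membrane list, 0.017 for the adhesion machinery and 0.40 for other integrin ligands. NID1, with signals given above, had a change of 0.86 and a limma adjusted p of 0.0553. The summed mesenchyme markers moved in the same comparison, from 46070 to 47320 at 0 mM to 68030 to 68930 at 20 mM, with 0 of the 10 called. Endoderm and yolk sac markers rose too, from 32170 to 32660 to 39170 to 39660. Pluripotent cell markers fell, from 77600 to 80070 to 67840 to 70900, and the sums of the other lists are given above. The part of these marker differences in the integrin values was not tested.

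**Figure D5:**
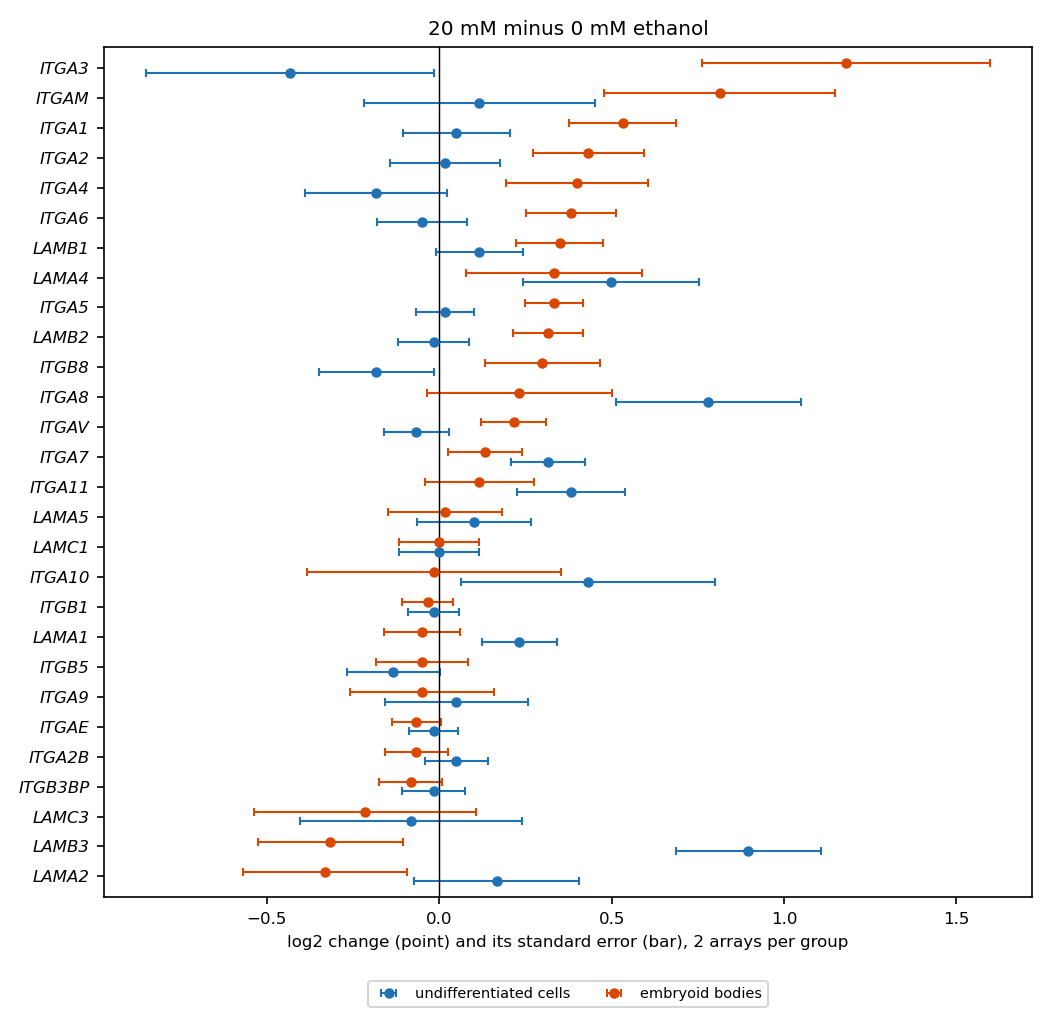
Log2 change with 20 mM ethanol for each tested member, with the standard error of the fit as bars, in blue in undifferentiated cells and in orange in embryoid bodies. No member was called at either stage, and the values run from -0.43 to 0.90 in undifferentiated cells and from -0.33 to 1.18 in embryoid bodies.

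In undifferentiated cells ethanol also gave 0 called members, where 0.00711% of all genes tested, that is 1 gene, was called higher and 0% lower. At an unadjusted p under 0.05 there were 3 members, against 7.01% of genes, and the trended and robust fit called 0 members and 0% of all genes. The arrays did not overlap for 5 members that were higher, against 15.4% of genes, and for 0 that were lower, against 12.1%. The median change was 0.033, beside 0.017 over all genes, and 16 of 28 changes were above 0, against 51.7% of genes. The smallest p belonged to LAMB3 (7.76 and 6.76 against 11.8 and 15.5, a change of 0.90 ± 0.21, limma adjusted p = 0.466) and ITGA7 (537 and 513 against 631 and 676, 0.32 ± 0.11, adjusted p = 0.635). ITGA8 (0.78 ± 0.27, limma adjusted p = 0.64) and ITGA11 (0.38, adjusted p = 0.71) followed, both with undifferentiated signals under the array median, as for LAMB3. For ITGA11 the mean of its probe sets turned the direction, to -0.30.

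The difference between the ethanol effects at the stages, tested as an interaction, gave 0 called members and 0% of all genes in either direction. At an unadjusted p under 0.05 there were 3 members, against 13.0% of genes, and 13 of 28 differences were above 0, against 47.4% of genes. The smallest p belonged to LAMB3, whose change was 0.90 in undifferentiated cells and -0.32 in embryoid bodies, a difference of -1.21 ± 0.30 (limma adjusted p = 0.292), or -0.62 with 16 added to each signal. The differences were 1.61 ± 0.59 for ITGA3 (limma adjusted p = 0.359), 0.32 ± 0.12 for ITGA5 (adjusted p = 0.364) and 0.43 ± 0.18 for ITGA6 (adjusted p = 0.394). ITGA6 therefore had its stage call at 20 mM alone, but the difference between the stage changes at 0 and 20 mM, which is the same interaction, did not pass. The number of arrays, 2 a group, limits the precision of all these values.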

How the data were processed

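RNA of 8 samples was measured on Affymetrix arrays of 54675 probe sets. The deposited values, made by the authors, are log10 signals rounded to 0.01: they run from -1.46 to 4.61, and the signal's mean after trimming 2% at each end is 500 to 500.1 on every array, as in globally scaled MAS5 signals. Per the submitters' processing notes RMA was used, without a version, which these values do not show. The authors' log10 values were converted here to log2 with no further normalisation. An annotation of the platform named 1 gene for 41097 probe sets, and the probe set with the highest mean stood for its gene. Genes with at least 2 arrays above their own median were tested. limma 3.58.1 in R 4.3.3 fitted group means over the 8 arrays, with 4 residual degrees of freedom, 1.81 prior ones and Benjamini-Hochberg adjustment over 14072 genes. The contrasts were stage at each dose, ethanol at each stage, and their interaction. On simulated data for ethanol in embryoid bodies with 14072 genes, the fit recovered 24.8% of genes with a log2 change of 0.5, 62.8% at 1, 90.8% at 2 and 97.6% at 4, and 6.63% of calls were false. The simulation shifted a small share of the genes, left the others unchanged and drew independent normal noise with each gene's residual spread. These rates therefore need not hold for the real arrays.

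The members and lists were chosen with earlier results of these data known. Values on every array are given for the 8 members with the largest stage change called at both doses and for the 2 with the highest mean signal (ITGB1 and LAMC1). For the 4 members with the smallest p in the ethanol contrast of a stage, they are given on the arrays of that stage. Up to 4 partners per list, chosen for the basement membrane and adhesion machinery lists, are given by log2 changes, some with signal ranges. The remaining members are given by ranges or single values. Alternatives were no filter, a stricter filter, other probe set rules, 3 normalisations, 16 added to each signal, a trended and robust variance, only the groups compared, a replicate block, and leaving out each array. Promoter windows came from RefSeq on GRCh38.p14 and were searched in python 3.11.15.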

Additional observations from a re-analysis of the deposited data

How the results depend on the processing

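With 2 arrays per group and signals rounded to 0.033 on the log2 scale, small and dim changes are the least certain. Of the members' higher calls with stage, 17 at 0 mM ranged from 12 to 18 over the alternatives and 18 at 20 mM from 13 to 20. The members tested numbered 17 with the filter at the 75th percentile, 22 without _x_at and _s_at probe sets and 36 with no filter, in place of 28. The 2 lower calls at each dose became 1 with the filter at the 75th percentile, 1 without _x_at and _s_at probe sets and 4 with median centring. At 0 mM ITGB3BP, 1 of the 2, also lost its call without undifferentiated array A or either embryoid body array, as given above. ITGB3BP has a single probe set, of the _s_at kind, so without that kind it was not tested and its call was not overturned. Median centring gave 2 members lower with ethanol in embryoid bodies, where the count was 0, and called 27.6% of all genes in either direction.

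Basement membrane partners higher with ethanol in embryoid bodies, 0 in the fit reported, numbered 2 with the filter at the 75th percentile, 1 with quantile normalisation, 3 with median centring, 2 with 16 added to each signal and 3 with a trended and robust variance. In the same order, these settings called 5.28%, 0.441%, 27.6%, 0.398% and 6.81% of all genes in either direction for this contrast. Median centring gave 1 of these partners lower. The trended and robust variance gave 1 higher in the interaction, where it called 0.22% of all genes. Of the adhesion machinery, 9 genes higher with stage at 0 mM became 5 with the filter at the 75th percentile, 4 with the mean of probe sets and 4 with median centring. The 9 lower became 3 with the mean of probe sets and 14 with median centring. For this contrast the stricter filter called 65.8% of all genes in either direction, the mean of probe sets 37.6% and median centring 59.1%. Leaving out 1 array gave 5 to 9 higher (5 without undifferentiated array A at 0 mM) and 4 to 9 lower (5 and 4 without embryoid body arrays A and B). At 20 mM the 9 higher became 5 with either the stricter filter or the mean of probe sets, and the 8 lower became 3 with the mean of probe sets, 5 without _x_at and _s_at probe sets and 5 to 7 when 1 array was left out (5 without undifferentiated array B at 20 mM). For stage at 20 mM the stricter filter called 70.3% of all genes, the mean of probe sets 42.2% and leaving out _x_at and _s_at probe sets 53.7%. Median centring gave 7 lower with ethanol in embryoid bodies, where the count was 0, and called 27.6% of all genes in that contrast.

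Directions turned for ITGA6 with stage at 0 mM (-0.23 with median centring, -0.017 without undifferentiated array A, -0.033 without embryoid body array A, within a range of -0.033 to 0.13 when 1 array was left out), for ITGB1 with median centring (-0.050 at 0 mM, -0.20 at 20 mM), for BCAR1 with the mean of probe sets (0.37 and 0.61), for RSU1 at 20 mM (0.14) and for ITGA11 with ethanol in undifferentiated cells (-0.30), the latter both with the mean of probe sets. The departures of arrays with one letter from the group mean correlated over genes at -0.0255 to 0.0493. With single arrays these departures hold the noise of each array, so the values cannot show whether the letters A and B pair the arrays. With the replicate letter as a block, the ITGB1 change at 20 mM was 0.22 (limma adjusted p = 0.0502, no longer a call). Of the values of single genes under the alternatives, 483 of 517 at 0 mM and 482 of 517 at 20 mM kept their direction and side of the threshold. The cause of these changes was not tested.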
